A study of Mus musculus with 20 samples.

Results

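The 7 genes described here encode the MHC class II pathway of antigen presentation in the mouse: H2-Aa, H2-Ab1, H2-Eb1, H2-DMa, H2-DMb1, Cd74 and Ciita. They were found by symbol, after the Ensembl identifiers of both deposited count tables were matched to the GRCm38 annotation. All 7 were found in both tables, which share 25238 genes, and all 7 passed the filter on low counts in both experiments.

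RNA came from the livers of male C57BL/6J mice, 5 per vector, that had each received an intravenous AAV8 vector at 8 weeks of age and then a diet labelled HF/HS until 25 weeks. The shPKLR livers carried a short hairpin RNA against Pklr, the liver pyruvate kinase gene, and the shLUC livers a hairpin against firefly luciferase. The PKLR livers carried the Pklr coding sequence and the GFP livers the GFP gene. All 20 mice thus shared the strain, the sex, the diet and an AAV8 capsid, and the promoter of the Pklr vectors, that of thyroxine binding globulin, is active in hepatocytes.

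Class II molecules are pairs of an alpha and a beta chain that display peptides from the endosomes of dendritic cells, B cells and macrophages to CD4+ T cells. Cd74 encodes the invariant chain, which holds new class II pairs and brings them to the endosome, and H2-DMa and H2-DMb1 encode the subunits of the H2-DM exchanger that loads peptides there. Ciita encodes the coactivator that switches the other genes on, by docking on factors bound to a conserved pair of promoter elements named the X box and the Y box. In a resting liver class II is made mainly by immune cells and little by hepatocytes. In bulk RNA, fewer such cells and less RNA per cell cannot be told apart.

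H2-Ab1 (ENSMUSG00000073421, positions 34257689 to 34269419), H2-Aa (ENSMUSG00000036594, 34282744 to 34287823, reverse strand) and H2-Eb1 (ENSMUSG00000060586, 34305867 to 34316674) lie side by side on chromosome 17 of GRCm38. H2-DMa (ENSMUSG00000037649, 34119541 to 34139101) and H2-DMb1 (ENSMUSG00000079547, 34153072 to 34160230) lie in the same region, with the class I processing genes Psmb9, Tap1, Psmb8 and Tap2 between them and the classical chains. The RefSeq table of GRCm38.p6 holds promoters for H2-Aa, H2-Eb1, H2-DMa and H2-DMb1 among the members, and for the other chain genes H2-Ob, H2-Oa, H2-DMb2 and H2-Eb2 in the same region, where H2-Ob and H2-Oa encode the chains of the H2-DM inhibitor H2-DO. Those of H2-Aa, H2-Eb1 and H2-Ob are shown because each carries the paired elements through which Ciita is known to act, in the stretch from 20 bases before the X box to the last base before the start site. The intervals are chr17:34287824-34287927 on the reverse strand for H2-Aa, and on the forward strand chr17:34305753-34305866 for H2-Eb1 and chr17:34238795-34238904 for H2-Ob. The first run of capitals is a match to the X box letters CTNGNAAC and the second a match to the Y box letters TGATTGG, each written 5′ to 3′.
H2-Aa: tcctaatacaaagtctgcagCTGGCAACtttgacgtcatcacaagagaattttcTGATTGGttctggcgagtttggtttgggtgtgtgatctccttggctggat
H2-Eb1: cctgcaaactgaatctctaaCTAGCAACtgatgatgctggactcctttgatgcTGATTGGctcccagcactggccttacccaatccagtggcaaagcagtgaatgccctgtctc
H2-Ob: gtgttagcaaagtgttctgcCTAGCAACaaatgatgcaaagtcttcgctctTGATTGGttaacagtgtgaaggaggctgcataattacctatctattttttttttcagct

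The X box began 84 bases before the start site in H2-Aa, 94 in H2-Eb1 and 90 in H2-Ob, and the Y box 50, 61 and 59 bases before it. The distance from the start of one element to the start of the other was 34, 33 and 31 bases. In H2-DMb1, whose stretch lies within the first exon of another annotated transcript and is not shown, they began 97 and 63 bases before the RefSeq start. H2-Aa also held TGACGTCA, the binding letters of CREB, in lower case between both elements. Searched on both strands in the 250 bases before each start, the X box letters occurred in 10.9% of 32851 promoters, the Y box letters in 7.23% and the CREB letters in 1.55%. An X box followed by a Y box whose start lay within 40 bases, on the same strand, occurred in 24 promoters, or 0.0731%. The X box letters were chosen after the promoters of the members had been seen, and the 2 annotated starts of H2-DMa held neither element. H2-Oa and H2-DMb2 held the Y box letters alone, and in H2-Eb2 the Y box letters lay before the X box letters, 90 bases apart from start to start. Rfx5, which encodes an X box factor, was among the other genes with the pair. These matches describe letters and not binding.

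In the 20 livers the vectors acted on their target as labelled. Pklr was at 54.9 ± 23.3 CPM in shPKLR livers and 479 ± 116 CPM in shLUC livers, and at 742 ± 210 CPM in PKLR livers and 118 ± 34.5 CPM in GFP livers (SD, n = 5 each), where CPM is a count per 1e6 counts of the library, TMM-scaled over all 20 libraries together. By edgeR Pklr fell by 3.13 on the log2 scale with shPKLR (SE 0.30, adjusted p = 0.0027) and its log2 fold change with PKLR was 2.67 (SE 0.28, adjusted p = 0.0023). Depth lay between 29933820 and 45413803 counts per library for 19 livers, and shPKLR replicate 4 held 167891680. Nothing in the labels used here names a batch. The tissue matched its label: the group means of Alb, the albumin gene of hepatocytes, lay between 57829 and 66478 CPM. Genes of immune cells were rare beside it, with group means of 45.2 to 73.6 CPM for Clec4f of Kupffer cells, 0.722 to 3.41 CPM for Itgax of dendritic cells and 0.479 to 0.647 CPM for Cd3e of T cells.

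Set per kilobase of exon, so that genes can be compared, the members ranked alike in the 4 groups. Cd74 was highest, at a mean of 40.7 CPM per kilobase in shPKLR, 34.3 in shLUC, 31.2 in PKLR and 56.4 in GFP livers. The classical chains followed, with H2-Eb1 at 11.3, 8.92, 8.21 and 16.4, H2-Ab1 at 10.7, 8.09, 7.69 and 15.2 and H2-Aa at 7.26, 5.74, 5.09 and 10.7 CPM per kilobase in the same order of groups. H2-Eb1 was thus as abundant as its neighbours, although C57BL/6 mice are known to lack the matching alpha chain and to display no H2-E molecule. H2-DMb1 was at 2.24, 1.60, 1.74 and 2.95 and H2-DMa at 1.04, 0.748, 0.790 and 1.24 CPM per kilobase. Ciita was lowest, at 0.105, 0.0722, 0.0898 and 0.168 CPM per kilobase, with 14 to 145 counts per library.

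Ratios between members varied less over the livers than their levels did, most narrowly among the classical chains. H2-Aa spanned a 4.86-fold range over the 20 livers, H2-Ab1 4.75-fold, H2-Eb1 4.76-fold, Cd74 4.52-fold, H2-DMb1 5.06-fold, Ciita 4.43-fold and H2-DMa 3.39-fold. The ratio of H2-Eb1 to H2-Ab1, in CPM per kilobase, stayed between 0.977 and 1.23, and that of H2-Aa to H2-Ab1 between 0.563 and 0.816. The ratio of Cd74 to H2-Ab1 lay between 3.38 and 4.91. Other ratios were wider: that of H2-DMa to H2-DMb1 ran from 0.396 to 0.612, a 1.55-fold range, that of H2-DMb1 to H2-Ab1 from 0.176 to 0.306, a 1.74-fold range, and that of Ciita to H2-Ab1 from 0.00705 to 0.0149, a 2.11-fold range. After subtraction of the vector group means, the log2 levels of the 21 pairs of members had Pearson r between 0.807 and 0.989 over 20 livers, with a median of 0.969. These correlations are descriptions, since all pairs share the same libraries and some share a locus.

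By mean CPM the order of groups was GFP, shPKLR, shLUC and PKLR for H2-Aa, H2-Ab1, H2-Eb1 and Cd74, and GFP, shPKLR, PKLR and shLUC for H2-DMa, H2-DMb1 and Ciita. Neighbours in this order overlapped for every member. The gap between neighbours was within the larger of their SDs in all cases except Ciita between GFP and shPKLR livers. Levels of both experiments were placed on 1 scale by the shared TMM scaling, and the groups of different experiments were not tested against each other.

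**Figure D1:**
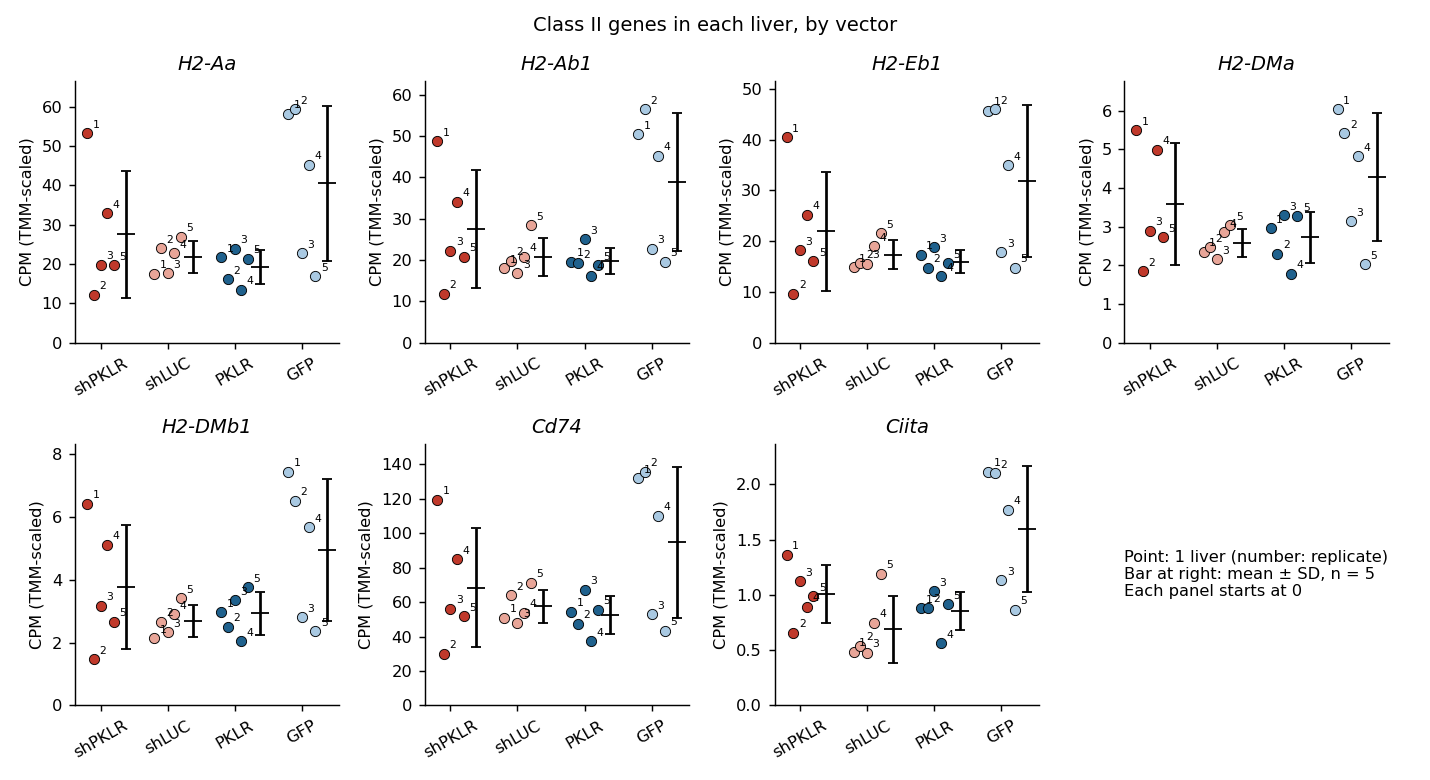
CPM (TMM-scaled, linear axes from 0) of the 7 class II genes in each liver, with the replicate number beside each point and the mean ± SD (n = 5) at the right of each group. GFP replicates 1, 2 and 4 and shPKLR replicates 1 and 4 stand high for the chains, the H2-DM genes and Cd74, while all 5 PKLR livers lie below the GFP mean in all 7 panels.

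The question of the overexpression experiment was how raising Pklr in hepatocytes alters the liver's transcripts. All 7 class II genes had a lower mean in PKLR livers than in GFP livers, at 0.477 to 0.634 of the GFP mean, and none passed the test over all genes. For each gene all 5 PKLR livers lay below the mean and the median of the GFP livers, and for each gene the groups overlapped. The coefficient of variation ran from 13.8% to 24.3% over the members in PKLR livers and from 35.7% to 48.8% in GFP livers.

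The classical chains had the largest differences among the members. H2-Aa, the alpha chain of H2-A, was at 21.7, 16.2, 23.9, 13.5 and 21.4 CPM in PKLR replicates 1 to 5, against 58.2, 59.4, 22.8, 45.3 and 16.9 CPM in GFP replicates 1 to 5. H2-Ab1, its beta chain, was at 19.6, 19.2, 25.0, 16.2 and 18.8 CPM in PKLR livers, against 50.4, 56.5, 22.7, 45.3 and 19.6 CPM in GFP livers. H2-Eb1, the beta chain of H2-E, was at 17.4, 14.8, 18.8, 13.1 and 15.7 CPM in PKLR livers, against 45.7, 46.0, 17.8, 35.0 and 14.7 CPM in GFP livers. GFP replicates 1, 2 and 4 lay above every PKLR liver for all 3 chains, and GFP replicates 3 and 5 lay within the range of the PKLR livers. Means were 19.3 ± 4.32 CPM in PKLR and 40.5 ± 19.8 CPM in GFP livers for H2-Aa, 19.8 ± 3.24 and 38.9 ± 16.7 CPM for H2-Ab1, and 16.0 ± 2.21 and 31.9 ± 14.9 CPM for H2-Eb1 (SD, n = 5 each). The log2 fold changes were -1.05 (SE 0.34), -0.96 (SE 0.29) and -0.98 (SE 0.31), with edgeR adjusted p-values of 0.14, 0.11 and 0.12.

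Cd74 was at 54.4, 47.4, 67.1, 37.2 and 55.6 CPM in PKLR livers, against 132, 136, 52.9, 110.1 and 43.3 CPM in GFP livers. Its log2 fold change was -0.84 (SE 0.32, edgeR adjusted p = 0.19). The same 3 GFP livers were high, and GFP replicates 3 and 5 lay within the PKLR range.

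The peptide exchanger genes were less abundant and had the smallest log2 fold changes among the members. H2-DMa was at 2.96, 2.30, 3.29, 1.78 and 3.28 CPM in PKLR livers, against 6.04, 5.42, 3.15, 4.82 and 2.03 CPM in GFP livers, with a log2 fold change of -0.64 (SE 0.28, edgeR adjusted p = 0.25). H2-DMb1 was at 2.96, 2.50, 3.35, 2.05 and 3.77 CPM in PKLR livers, against 7.44, 6.52, 2.80, 5.67 and 2.36 CPM in GFP livers, with a log2 fold change of -0.75 (SE 0.31, edgeR adjusted p = 0.22). H2-DMb1 has a close paralog beside it, H2-DMb2, and reads that fit several places were not set aside in these tables, so its values are uncertain. H2-DMa shares 360 exon bases with Brd2 on the other strand, and the strand setting of the counting is not given in the sources used here. Brd2 itself differed by 0.01 on the log2 scale (SE 0.07) between PKLR and GFP livers.

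Ciita, the coactivator, was at 0.882, 0.884, 1.03, 0.565 and 0.916 CPM in PKLR livers, against 2.11, 2.10, 1.13, 1.77 and 0.867 CPM in GFP livers. GFP replicates 1, 2, 3 and 4 thus lay above every PKLR liver, and replicate 5 lay among them. The log2 fold change was -0.89 (SE 0.28, edgeR adjusted p = 0.11). Ciita shares 329 exon bases with Dexi on the other strand, which limits its value in the same way as that of H2-DMa.

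Among all 15842 genes tested between PKLR and GFP livers, edgeR called 322, which is 2.03%, and 134 of them, or 0.846%, were lower in PKLR livers. Of the 7 members 0 were called, while all 7 had an unadjusted edgeR p below 0.05, between 0.0066 and 0.043, as did 18.8% of all genes, with 9.16% below 0.05 and lower in PKLR. The members' median log2 fold change was -0.89, against 0.01 over all genes tested, and 6.18% of all genes had a log2 fold change as low as that of the member with the smallest difference or lower. DESeq2 called 4 members lower in PKLR, namely H2-Ab1 (adjusted p = 0.0097), H2-Eb1 (0.014), H2-Aa (0.017) and Ciita (0.041), where it called 3.62% of all genes lower. Without GFP replicate 5, the GFP liver with the lowest class II levels, edgeR called the same 4 genes, at adjusted p-values of 0.036 to 0.046. That fit called 469 of 16040 genes, 270 of them lower in PKLR, against 322 and 134 with all livers. The members' median log2 fold change was then -1.04, so leaving out a liver low in class II also widened their difference. Without GFP replicate 1 or replicate 2, both high in class II, that median was -0.76 and -0.77, with 0 members called. In a two-sided exact permutation test of log2(CPM + 1), where 0.00794 is the smallest p that 5 against 5 livers allow, Ciita had p = 0.040 and H2-Ab1 p = 0.048, and the other members had p between 0.071 and 0.13. The groups did not overlap in 2.17% of all genes tested in the direction of lower in PKLR, and did so in 0 of the 7 members.

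In the knockdown experiment all 7 genes had a higher mean in shPKLR livers than in shLUC livers, at 1.19 to 1.46 times the shLUC mean, and none passed the test. The coefficient of variation was 26.2% to 58.5% over the members in shPKLR livers, against 14.0% to 44.0% in shLUC livers. H2-Aa was at 53.2, 12.2, 19.9, 32.9 and 19.7 CPM in shPKLR replicates 1 to 5, against 17.6, 24.0, 17.7, 22.7 and 27.0 CPM in shLUC replicates 1 to 5. H2-Ab1 was at 48.8, 11.9, 22.3, 34.1 and 20.8 CPM in shPKLR livers, against 18.0, 19.9, 16.8, 20.8 and 28.4 CPM in shLUC livers. H2-Eb1 was at 40.4, 9.67, 18.2, 25.2 and 16.1 CPM in shPKLR livers, against 14.9, 15.6, 15.6, 19.1 and 21.6 CPM in shLUC livers. The shPKLR livers thus lay on both sides of the shLUC livers, with replicates 1 and 4 above all 5 and replicate 2 below all 5. The log2 fold changes were 0.33 (SE 0.32), 0.40 (SE 0.30) and 0.33 (SE 0.30), with edgeR adjusted p-values of 0.60, 0.51 and 0.58.

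Cd74 was at 119, 29.98, 56.1, 84.8 and 51.6 CPM in shPKLR livers, against 50.8, 63.9, 47.9, 53.9 and 71.1 CPM in shLUC livers, with a log2 fold change of 0.24 (SE 0.29, edgeR adjusted p = 0.68). H2-DMa was at 5.49, 1.85, 2.90, 4.99 and 2.72 CPM in shPKLR livers, against 2.35, 2.47, 2.17, 2.86 and 3.04 CPM in shLUC livers (log2 fold change 0.47, SE 0.27, edgeR adjusted p = 0.40). H2-DMb1 was at 6.42, 1.47, 3.17, 5.12 and 2.66 CPM in shPKLR livers, against 2.15, 2.66, 2.33, 2.89 and 3.41 CPM in shLUC livers (log2 fold change 0.48, SE 0.33, edgeR adjusted p = 0.47). For these 3 genes too, shPKLR replicates 1 and 4 were above every shLUC liver and replicate 2 below every one. Ciita was at 1.36, 0.657, 1.13, 0.893 and 0.988 CPM in shPKLR livers, against 0.485, 0.539, 0.478, 0.747 and 1.19 CPM in shLUC livers (log2 fold change 0.51, SE 0.31, edgeR adjusted p = 0.43). For Ciita replicate 1 alone lay above all shLUC livers, and shLUC replicate 5 was the second highest of the 10.

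EdgeR called 1 of the 15611 genes tested in the knockdown, or 0.00641%, and 0 of the 7 members, none of which had an unadjusted p below 0.05. DESeq2 also called 0 members. The members' median log2 fold change was 0.40, against 0.02 over all genes, 52.8% of which were above 0. The median was 0.09 without shPKLR replicate 1, where 4 of the 7 members were above 0. It was 0.59 without shPKLR replicate 2 and 0.54 without shLUC replicate 5, where all 7 were above 0. The value thus depended strongly on single livers. The groups did not overlap with shPKLR higher in 1.41% of all genes and in 0 of the members, and the exact permutation p-values were 0.11 to 0.75.

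The overexpression effect less the knockdown effect, fitted over all 20 livers, was negative for each member. It was -1.42 for Ciita (SE 0.42, edgeR adjusted p = 0.051), -1.41 for H2-Aa (SE 0.49, edgeR adjusted p = 0.086) and -1.39 for H2-Ab1 (SE 0.44, edgeR adjusted p = 0.063) on the log2 scale. The others were -1.34 for H2-Eb1 (SE 0.45), -1.26 for H2-DMb1 (SE 0.47), -1.15 for H2-DMa (SE 0.41) and -1.11 for Cd74 (SE 0.45), with edgeR adjusted p-values of 0.077 to 0.14. EdgeR called 5.5% of 16407 genes in this fit and 0 of the 7 members, and 55.4% of all genes were below 0. DESeq2 called H2-Aa, H2-Ab1, H2-Eb1 and Ciita, where it called 5.05% of all genes with a lower value. Leaving out 1 library changed the edgeR count of members to 6 of 7 without shPKLR replicate 2, 5 without GFP replicate 5, 2 without GFP replicate 3 and 1 without shLUC replicate 5. Over all genes these fits called 1384 (768 lower), 1201 (697 lower), 939 (515 lower) and 600 (302 lower), against 902 (451 lower) with all livers. ShPKLR replicate 2 and GFP replicate 5 had the lowest class II levels of their groups. The count of members stayed at 0 without any one of the other 16 libraries.

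**Figure D2:**
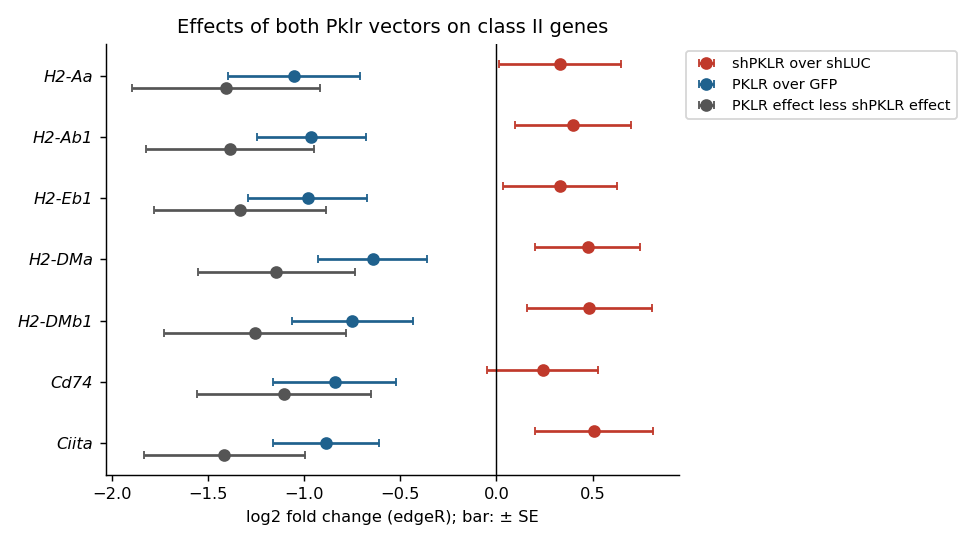
Log2 fold change of each class II gene (x axis, bar ± SE, edgeR) for shPKLR over shLUC, PKLR over GFP, and the PKLR effect less the shPKLR effect. All 7 genes lie right of 0 in the knockdown and left of 0 in the overexpression and in the difference, and none passed an adjusted p of 0.05.

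H2-Ob and H2-DMb2, the other class II chain genes tested, were below 0 in the overexpression and above 0 in the knockdown, at low levels. H2-Ob was at 0.588, 0.354, 0.653, 0.267 and 0.634 CPM in PKLR livers, against 1.56, 1.15, 0.819, 1.28 and 0.623 CPM in GFP livers, with a log2 fold change of -1.11 (SE 0.32, edgeR adjusted p = 0.095, and 0.026 with DESeq2). PKLR replicates 1, 2 and 4 lay below every GFP liver. H2-DMb2, the paralog of H2-DMb1, had a log2 fold change of -0.40 (SE 0.39, edgeR adjusted p = 0.62) there. In the knockdown these genes had log2 fold changes of 0.70 (SE 0.29) and 0.61 (SE 0.26), with edgeR adjusted p-values of 0.30 and 0.31. The overexpression effect less the knockdown effect was -1.83 for H2-Ob (SE 0.43, edgeR adjusted p = 0.018), which was called there. For H2-DMb2 it was -1.03 (SE 0.48, edgeR adjusted p = 0.18). H2-Oa and H2-Eb2 were below the filter in both experiments.

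Of the 4 class I processing genes that lie among the class II genes on chromosome 17, 1 passed the test between PKLR and GFP livers. Tap1, which encodes a subunit of the transporter that feeds peptides to class I molecules, rose, with a log2 fold change of 0.46 (SE 0.10, edgeR adjusted p = 0.042). It was at 50.1, 57.3, 47.2, 44.0 and 47.2 CPM in PKLR livers, against 35.4, 43.6, 36.5, 29.97 and 34.5 CPM in GFP livers. The lowest PKLR liver lay just above the highest GFP liver, at 44.0 against 43.6 CPM. Psmb9 and Psmb8, subunits of the immunoproteasome, had log2 fold changes of 0.49 (SE 0.15) and 0.34 (SE 0.15), and Tap2, the partner of Tap1, one of 0.24 (SE 0.09), with edgeR adjusted p-values of 0.10, 0.24 and 0.17. Of 12 class I presentation genes tested, all 12 were above 0 and 1 was called, where 51.1% of all genes were above 0, 48.9% were below and 1.19% were called higher in PKLR. The median was 0.32, against 0.01 over all genes, and all 12 stayed above 0 under every alternative run, with medians of 0.26 to 0.36. DESeq2 called 3 of them, Tap1, Psmb9 and Erap1, where it called 3.36% of all genes higher in PKLR. Erap1, which trims peptides for class I, had 0.32 (SE 0.09, edgeR adjusted p = 0.097). The call of Tap1 held in 2 of 10 fits with 1 library left out, where its adjusted p ran from 0.024 to 0.094. In the knockdown 8 of the 12 were above 0 and 4 below, with 0 called and a median of 0.06.

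**Figure D3:**
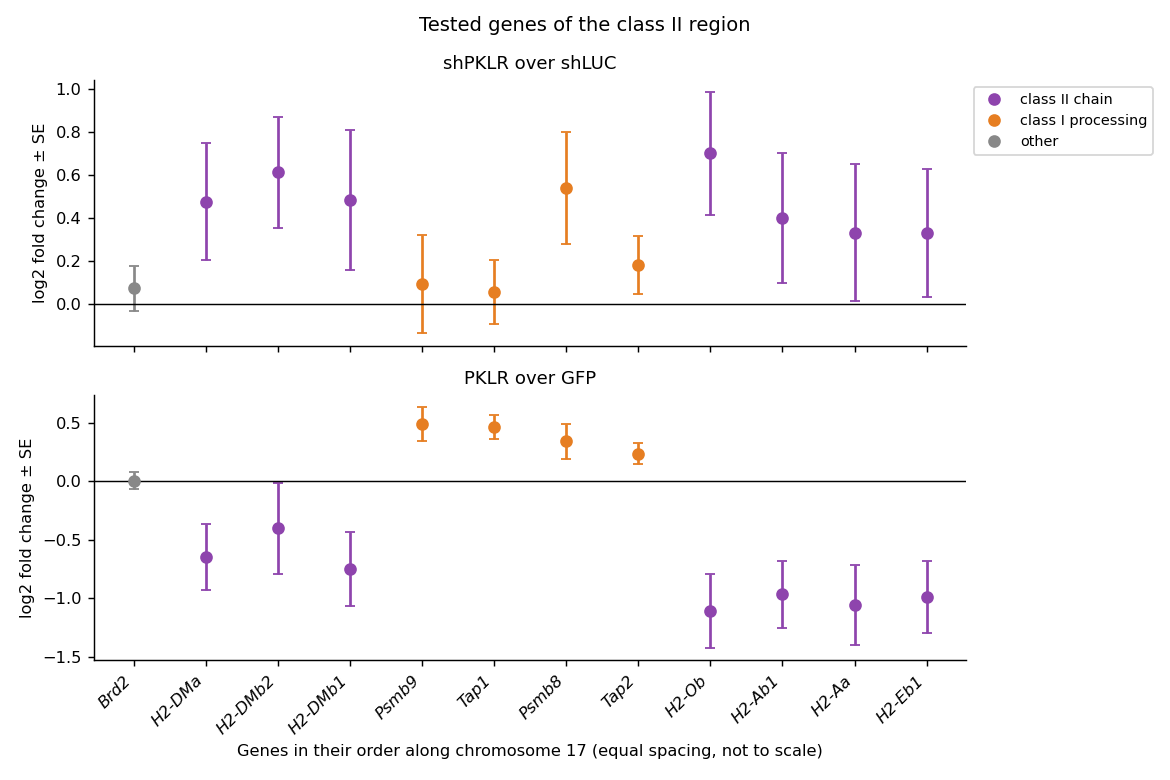
Log2 fold change ± SE (y axis, edgeR) of the tested genes of the class II region in chromosomal order (x axis, equal spacing), with shPKLR over shLUC in the upper panel and PKLR over GFP in the lower. In the lower panel all 7 class II chain genes lie below 0 and the 4 class I processing genes lie above it, with Brd2 at 0.01.

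Factors of class II transcription and genes of interferon gamma signalling, the known inducer of Ciita, were divided. Of 11 tested factors of class II transcription, 5 were above 0 and 6 below between PKLR and GFP livers, with a median of -0.05 and 1 called. Irf8, a factor of dendritic cells and macrophages, had a log2 fold change of -0.48 (SE 0.29, edgeR adjusted p = 0.41) and Irf1 one of 0.20 (SE 0.19, edgeR adjusted p = 0.61). Of 6 interferon gamma pathway genes 4 were above 0, with a median of 0.09 and 0 called. The receptor gene Ifngr1 was at -0.40 (SE 0.12, edgeR adjusted p = 0.11) and the inhibitor gene Socs1 at 0.42 (SE 0.35, edgeR adjusted p = 0.56). Ifng itself was at 0 counts in some libraries and was not tested. In the knockdown, the transcription list had 8 of 11 above 0 (median 0.13) and the interferon gamma list 3 of 6 (median 0.10), with 0 called in either. Irf1 had 0.48 (SE 0.19, edgeR adjusted p = 0.29) and Socs1 0.91 (SE 0.31, edgeR adjusted p = 0.27).

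Of 11 genes of peptide loading and class II turnover, 9 were below 0 between PKLR and GFP livers, with a median of -0.23 and 0 called. Cd83, which stabilizes class II at the surface, was at 1.52, 0.678, 0.952, 0.802 and 0.986 CPM in PKLR livers, against 4.23, 3.16, 0.945, 2.59 and 0.569 CPM in GFP livers (log2 fold change -1.20, SE 0.48, edgeR adjusted p = 0.21). The 3 GFP livers that were high in class II were high in Cd83 too. In the knockdown the list had 5 genes above 0 and 6 below, with a median of -0.04, and Ctsd, an endosomal protease also made by hepatocytes, had -0.43 (SE 0.16, edgeR adjusted p = 0.29). Of 4 co-stimulation genes 3 were below 0 in the overexpression (median -0.56) and 4 above 0 in the knockdown (median 0.64), with 0 called by edgeR. Icosl, a ligand that antigen-presenting cells show to T cells, had log2 fold changes of -1.05 (SE 0.33, edgeR adjusted p = 0.12, and 0.044 with DESeq2) in the overexpression and 0.73 (SE 0.27, edgeR adjusted p = 0.28) in the knockdown. Cd86, another such ligand, had -0.39 in the overexpression (SE 0.40, edgeR adjusted p = 0.64), against 0.80 in the knockdown (SE 0.23, edgeR adjusted p = 0.22).

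Some markers of immune cells were high in the same GFP livers as class II, and their part in the class II difference was not tested. Of 14 dendritic cell markers 12 were below 0 between PKLR and GFP livers, with a median of -0.55 and 0 called by edgeR. DESeq2 called 2 of them lower, Itgax and Fscn1, of which Fscn1 is named after its value was seen. Over all genes 48.9% were below 0, and DESeq2 called 3.62% lower. The summed level of the dendritic cell markers, of which a few widely expressed genes make up most, was 129.9 to 245 CPM in PKLR and 181 to 291 CPM in GFP livers. Itgax, the integrin CD11c, was at 1.40, 0.737, 1.03, 1.16 and 1.16 CPM in PKLR livers, against 6.14, 5.29, 1.26, 3.19 and 1.19 CPM in GFP livers (log2 fold change -1.62, SE 0.45, edgeR adjusted p = 0.092). GFP replicates 1, 2 and 4 were again the high ones, and replicates 3 and 5 lay within the PKLR range. Flt3, the growth factor receptor of dendritic cells, averaged 0.302 ± 0.134 CPM in PKLR and 0.639 ± 0.220 CPM in GFP livers (SD, n = 5 each), with a log2 fold change of -1.06 (SE 0.35, edgeR adjusted p = 0.13). Zbtb46, a dendritic cell factor that endothelium also expresses, had -0.05 (SE 0.14).

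Of 10 tested markers of monocytes and lipid-associated macrophages, 8 were below 0 in the same comparison, with a median of -1.07 and 1 called. That was Gpnmb, a glycoprotein of lipid-laden macrophages, which fell, with a log2 fold change of -3.55 (SE 0.75, edgeR adjusted p = 0.043). It was at 1.91, 0.236, 0.680, 0.416 and 0.493 CPM in PKLR livers, against 17.04, 15.6, 3.69, 7.79 and 1.46 CPM in GFP livers, with GFP replicates 1, 2 and 4 highest. The call held in 2 of 10 fits with 1 library left out, where its adjusted p ran from 0.021 to 0.098. Trem2, the lipid receptor of these macrophages, had -1.71 (SE 0.47, edgeR adjusted p = 0.091), the chemokine receptor gene Cx3cr1 -1.43 (SE 0.44, edgeR adjusted p = 0.11), Ccr2, which brings monocytes into tissue, -1.26 (SE 0.37, edgeR adjusted p = 0.10), and the monocyte gene Ly6c2 -0.65 (SE 0.51, edgeR adjusted p = 0.53). The 2 genes of the list above 0, named after their values were seen, were Fabp5 and Spp1. Fabp5 had 1.08 (SE 0.52, edgeR adjusted p = 0.30) and Spp1 0.02 (SE 0.17, edgeR adjusted p = 0.96). In the knockdown Fabp5 had -0.75 (SE 0.38, edgeR adjusted p = 0.36). The summed level of the list was 88.1 to 103 CPM in PKLR and 70.5 to 209 CPM in GFP livers. Its median was -0.65 with limma-voom and -0.70 without GFP replicate 1. DESeq2 called Gpnmb, Trem2, Cx3cr1 and Ccr2 lower, where it called 3.62% of all genes lower.

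Kupffer cell and B cell markers had medians near 0 between PKLR and GFP livers, and none was called there by edgeR. Of 13 Kupffer cell markers 6 were above 0 and 7 below between PKLR and GFP livers, with a median of -0.05, 0 called and summed levels of 141 to 421 CPM in PKLR and 152 to 525 CPM in GFP livers. The defining genes Clec4f, Timd4 and Vsig4 had log2 fold changes of 0.41 (SE 0.38), 0.77 (SE 0.36) and 0.23 (SE 0.39). Cd163, a scavenger receptor of resident macrophages, had 1.46 (SE 0.41, edgeR adjusted p = 0.097, and 0.0046 with DESeq2), and the scavenger receptor gene Marco -1.98 (SE 0.79, edgeR adjusted p = 0.21). Of 11 B cell markers 8 were below 0, with a median of -0.19, 0 called and summed levels of 14.3 to 26.0 CPM in PKLR and 14.0 to 19.5 CPM in GFP livers. Cd79a and Cd79b, parts of the B cell receptor complex, had log2 fold changes of -0.19 (SE 0.44) and -0.26 (SE 0.31), and Ighm, the heavy chain of IgM, had 0.52 (SE 0.25). None of these B cell genes passed the test between PKLR and GFP livers.

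Of 7 T and NK cell markers 6 were below 0 (median -0.49, 0 called), with Cd3e and Cd3g of the T cell receptor complex at -0.42 (SE 0.38) and -0.49 (SE 0.42). Cd4, the partner of class II on T cells, was at 1.15 (SE 0.39, edgeR adjusted p = 0.14) and Gzma, a granzyme, at -1.23 (SE 0.36, edgeR adjusted p = 0.10). Summed T and NK levels were 3.06 to 6.34 CPM in PKLR and 3.98 to 6.75 CPM in GFP livers. Of 8 stellate cell markers all 8 were below 0, with a median of -0.72, 0 called and summed levels of 134 to 258 CPM in PKLR and 209 to 449.6 CPM in GFP livers. Reln, Dcn and Pdgfrb were at -0.79 (SE 0.19), -0.64 (SE 0.17) and -0.63 (SE 0.17), with edgeR adjusted p-values of 0.061, 0.078 and 0.078, and Lrat at -0.05 (SE 0.34). DESeq2 called Reln, Dcn, Pdgfrb, Col1a2 and Col3a1 lower, where the collagen genes are named after their values were seen, and limma-voom called Reln. Over all genes 48.9% were below 0, and DESeq2 called 3.62% lower. The 8 endothelial markers had a median of 0.06 and 0 called, with Stab2 at 0.33 (SE 0.16), Stab1 at -0.13 (SE 0.18) and Clec4g at 0.15 (SE 0.25). Cholangiocyte markers had a median of -0.09 over 6 genes and 0 called, with Krt19 at -0.06 (SE 0.25), Krt7 at -0.11 (SE 0.22) and Epcam at -0.04 (SE 0.20). The 8 hepatocyte markers had a median of 0.03, with Alb at -0.08 (SE 0.18), Apoa1 at -0.10 (SE 0.22) and Apob at 0.07 (SE 0.11). The 1 hepatocyte gene called was Cyp3a11, a cytochrome P450 of a family with near-identical members and so uncertain, which fell by 1.18 on the log2 scale (SE 0.23, edgeR adjusted p = 0.030) and held in 4 of 10 fits with 1 library left out.

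In the knockdown edgeR called no gene of any list, and DESeq2 called 1, Batf3 (adjusted p = 0.037), where it called 0.782% of all genes higher in shPKLR. Markers above 0 numbered 12 of 13 for Kupffer cells (median 0.44), 9 of 10 for B cells (0.27), 9 of 10 for monocytes and lipid-associated macrophages (0.45), 8 of 10 for dendritic cells (0.51) and 5 of 6 for T and NK cells (0.44), while 52.8% of all genes were above 0. With limma-voom the B cell median was -0.12, with 3 of 10 above 0, and the T and NK cell median -0.0012, so that neither direction held. Endothelial markers had 2 of 8 above 0 (median -0.08), stellate cell markers 5 of 8 (0.19), cholangiocyte markers 4 of 6 (0.22) and hepatocyte markers 4 of 8 (-0.03). Summed levels were 189 to 468 CPM in shPKLR and 199 to 358 CPM in shLUC livers for Kupffer cells, and 164 to 266 CPM in shPKLR and 132 to 159.5 CPM in shLUC livers for dendritic cells. For B cells they were 13.7 to 30.1 CPM in shPKLR and 22.4 to 50.3 CPM in shLUC livers. Among single genes, Batf3, a dendritic cell factor, had 1.51 (SE 0.41, edgeR adjusted p = 0.22), Marco 1.77 (SE 0.53, edgeR adjusted p = 0.23), Clec4f 0.54 (SE 0.26, edgeR adjusted p = 0.35), Cd22 of B cells 0.71 (SE 0.26, edgeR adjusted p = 0.29) and Ighm -1.14 (SE 0.36, edgeR adjusted p = 0.25). Further values by the naming rule were -0.48 for the endothelial gene Oit3 (SE 0.20), 0.34 for Spp1 (SE 0.24), -0.35 for the hepatocyte gene Cps1 (SE 0.28) and 0.62 for Cd3d (SE 0.36) in the knockdown, and -0.50 for Sox9 (SE 0.21) and 0.14 for Asgr1 (SE 0.10) in the overexpression, none of which passed the test. No marker of any list was at 0 in every library. For the overexpression effect less the knockdown effect, edgeR called 5.5% of all genes, with some genes chosen by the naming rule among them. Below 0 were Flt3 (-2.23), Cyp3a11 (-1.48), Itgax (-2.44), Gpnmb (-4.71), H2-Ob (-1.83), Icosl (-1.81) and Ifngr1 (-0.68). So were Cx3cr1 (-2.01), Marco (-3.78), Trem2 (-2.37) and Batf3 (-1.73), while Ighm (1.64) was above 0. Their edgeR adjusted p-values ran from 0.011 to 0.046.

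**Figure D4:**
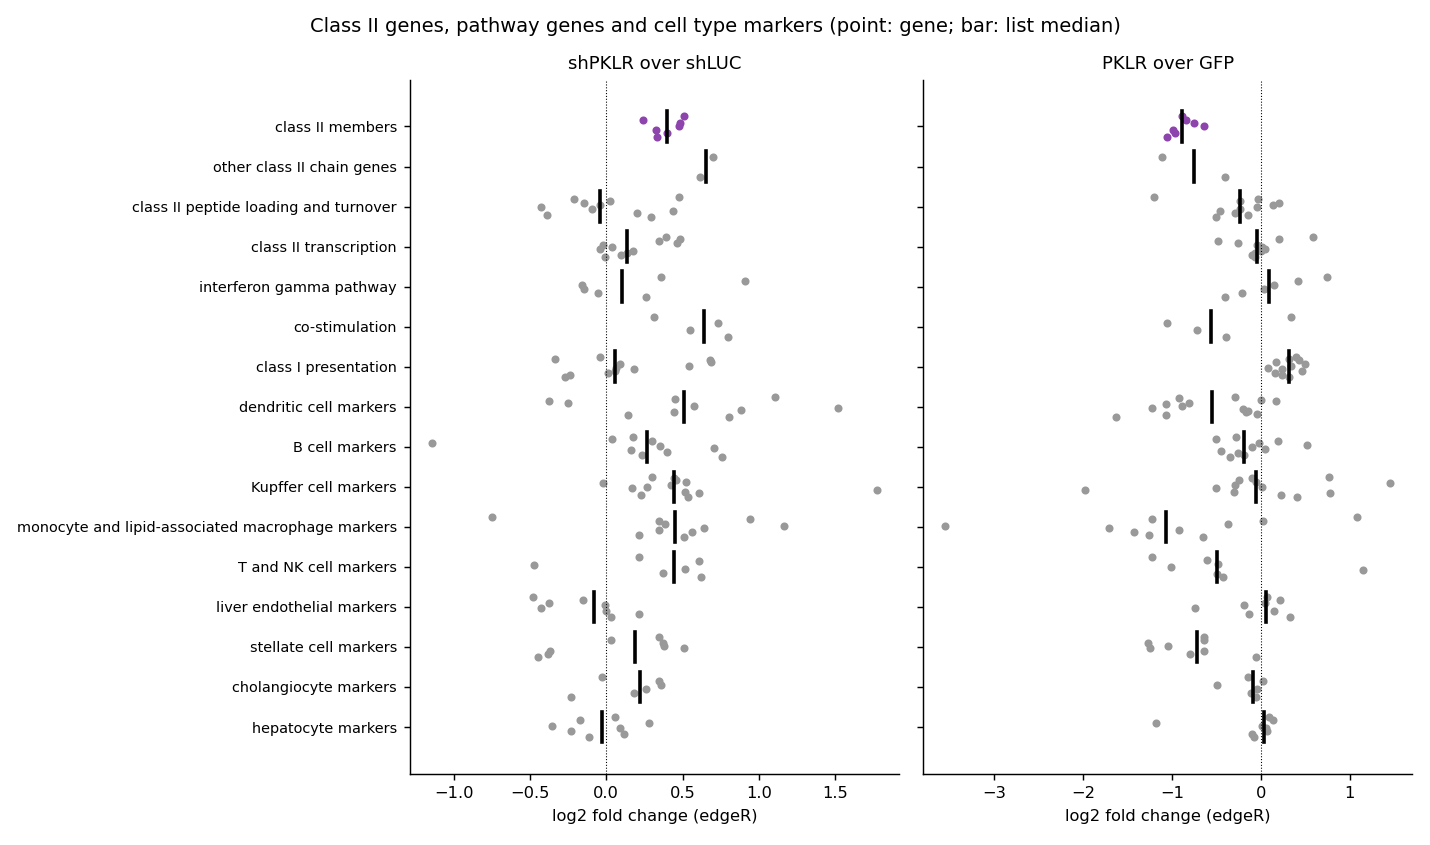
Log2 fold changes (x axis, edgeR) of the tested genes of each list (rows, 1 point per gene), with the list median as a bar, for shPKLR over shLUC on the left and PKLR over GFP on the right. Class II genes cluster near 0.40 on the left and near -0.89 on the right, where class I presentation genes all lie above 0.

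Across livers, class II followed some of these lists more closely than others. On deviations from the vector group means, the mean log2 level of the 7 members had a Pearson r over 20 livers of 0.925 with the co-stimulation genes, 0.911 with dendritic cell markers, 0.820 with Kupffer cell markers, 0.786 with B cell markers and 0.749 with monocyte and lipid-associated macrophage markers. It was 0.869 with the class II transcription genes, 0.380 with class I presentation, 0.214 with the interferon gamma pathway and -0.359 with hepatocyte markers. For the other lists it was 0.903 (other class II chains), 0.685 (T and NK), 0.660 (peptide loading), 0.647 (endothelial), 0.476 (stellate) and 0.242 (cholangiocyte). The value of the other chains rests on 2 genes, 1 of them H2-DMb2, the paralog of H2-DMb1, and that of co-stimulation on 4. Lists of unlike size are thus not strictly comparable. Without GFP replicate 5 and shPKLR replicate 2, it was 0.890 with co-stimulation, 0.859 with dendritic cell and 0.734 with Kupffer cell markers. B cell markers then had 0.679, the monocyte list 0.661, class I presentation 0.501 and the interferon gamma pathway -0.063. All points share their libraries, and the values are descriptions. Among 10340 annotated genes that averaged 2 CPM or more, the 8 most like the members were Themis2 (0.918), Igsf6 (0.912), Nckap1l (0.907), Tmsb4x, Filip1l, Clec1b, Coro1a and Pik3cd (0.900). The ninth had 0.8998, so the order near the end of these 8 is not sharp. Without the farthest libraries, GFP replicate 5 and shPKLR replicate 2, their r ran from 0.824 to 0.899. With levels not centred on the group means, 2 of the 8, Nckap1l and Coro1a, stayed among the top 8. In the overexpression these genes had log2 fold changes from -0.82 for Coro1a (SE 0.33) to -0.07 for Themis2 (SE 0.37), and none was called in either experiment.

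**Figure D5:**
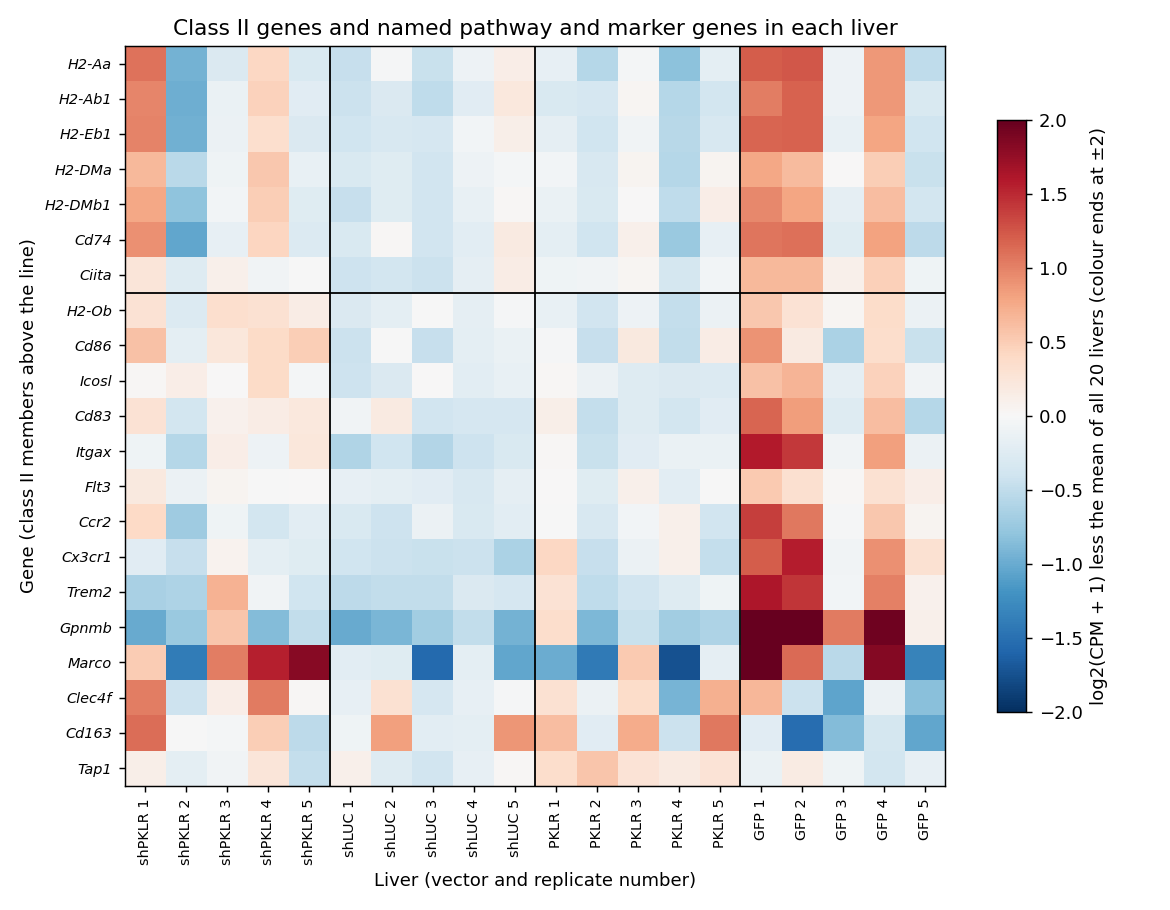
Log2(CPM + 1) less the mean of all 20 livers (colour) for the 7 class II genes above the line and named pathway and marker genes below it (rows), in each liver (columns, shPKLR, shLUC, PKLR and GFP). The columns of GFP replicates 1, 2 and 4 are high for class II, Itgax, Ccr2, Cx3cr1, Trem2 and Gpnmb, while shPKLR replicates 1 and 4 are high for the class II chains and Clec4f, and Tap1 is high in PKLR columns.

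The summed level of the 7 members shows the same livers at the ends of the range. It was 275, 67.8, 124, 188 and 115 CPM in shPKLR replicates 1 to 5, against 103 to 156 CPM in shLUC livers. It was 84.4 to 142 CPM in PKLR livers, against 302, 312, 123, 248 and 99.8 CPM in GFP replicates 1 to 5. The PKLR mean of 114 CPM was close to the shLUC mean of 123 CPM, and the GFP mean was 217 CPM. In GFP replicates 1, 2 and 4, Gpnmb was at 17.04, 15.6 and 7.79 CPM and Trem2 at 6.00, 5.16 and 3.62 CPM, whereas in shPKLR replicates 1 and 4 Gpnmb was at 0.145 and 0.252 CPM and Trem2 at 0.465 and 1.19 CPM. Clec4f was at 108 and 109 CPM in shPKLR replicates 1 and 4, and at 84.4, 39.1 and 48.7 CPM in GFP replicates 1, 2 and 4. These livers were picked by their class II level, so the values are a description without a test.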

How the data were processed

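Total RNA of frozen livers was sequenced after a stranded total RNA library preparation, per the labels' protocols. The values used are raw counts of reads per gene as deposited, in 1 table for the knockdown (27052 genes) and 1 for the overexpression (26286 genes). The submitters' processing notes name HISAT2, DESeq2, GRCm38 and mm10, with no versions. How reads were counted, on which annotation and with which strand setting is not given in the sources used here. Counts at Gm28661, a nuclear copy of mt-Co2, were 1.00 to 1.02 times those of mt-Co2 in the 20 libraries, so reads that fit several places were not set aside. This ratio cannot tell whether such reads were counted at each place or divided among the places. Values of near-identical genes are uncertain.

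Identifiers were matched to GENCODE M21 symbols (26859 in the knockdown and 26094 in the overexpression table). Value columns matched to no sample numbered 0. The members and the gene lists were chosen with earlier results of these data known. One marker of the hepatocyte list was not matched. All 7 members are named. From each list the text names each gene called in either experiment, the 2 others with the smallest p and, for cell types, the first 3 markers. Of the genes so chosen, 2 are not reported here.

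Each experiment was tested with the robust quasi-likelihood test of edgeR 4.0.16, run in R 4.3.3 on TMM-scaled counts that passed filterByExpr, without covariates, with Benjamini-Hochberg adjustment over all genes tested and calls at an adjusted p of 0.05. The difference was fitted over all 20 libraries. The SE is the size of the log2 fold change divided by the square root of F. Single values were also tested by exact permutation of log2(CPM + 1). The ranking of single genes by likeness was made over genes that averaged 2 CPM or more and had no predicted gene or pseudogene name. The likeness of the lists used a lower floor and so took in less abundant genes, H2-Ob among them. DESeq2 1.42.0 and limma-voom (limma 3.58.1) with sample weights were alternatives. The steps were tested on simulated counts. Samples are livers of injected mice, 5 per group, per the submitters' design text.

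Promoters came from RefSeq (GRCm38.p6), and entries were used for H2-Aa, H2-Eb1, H2-DMa and H2-DMb1 among the members. Precision is limited by counting for genes near or under 1 CPM, Ciita included.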

Additional observations from a re-analysis of the deposited data

How the results depend on the processing

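In the overexpression all 7 members stayed below 0 in each of the 17 alternative fits. Calls of members were 0 with edgeR, 4 with DESeq2, and 0 to 4 over the fits with 1 library left out. For the overexpression effect less the knockdown effect all 7 stayed below 0 in 27 fits, and calls of members were 0, with 4 in DESeq2, 1 with genes kept only above 1 CPM in 5 libraries and 0 to 6 with 1 library left out. Over all genes the fit with that 1 CPM filter called 833 of 13667, 406 of them lower. In the knockdown, limma-voom gave log2 fold changes of -0.13 for H2-Aa, -0.012 for H2-Ab1, -0.094 for H2-Eb1 and -0.17 for Cd74, where the cause was not tested. With 1 library left out, those of H2-Aa ran from -0.047 (without shPKLR replicate 1) to 0.52, those of H2-Eb1 from -0.0094 to 0.51 and those of Cd74 from -0.057 to 0.43. There the class I presentation median, chosen for this check after seeing the data, was -0.055 with limma-voom and ran from -0.064 (without shPKLR replicate 4) to 0.14 with 1 library left out. The B cell and the T and NK cell medians also fell below 0 there with limma-voom, at -0.12 and -0.0012, and the 1 T and NK gene over 1 CPM was at -0.45 there and at 1.13 in the overexpression. Batf3 was called in the knockdown with DESeq2 and in 1 fit of all 20 libraries. In the overexpression, calls of list genes outside the members numbered up to 5 of the stellate list, 4 of the monocyte and macrophage list, 3 of class I presentation and 2 of the dendritic list, all with DESeq2. At most 1 T and NK gene and 1 Kupffer cell gene were called higher in any fit, and 0 of either list lower. The Kupffer cell median there ran from -0.22 to 0.10. Plain CPM without TMM left 1 member, Ciita, with an exact permutation p below 0.05, in place of 2.

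Over all genes, the knockdown called 1, and 7 with RLE size factors, 17 with no filter, 260 with DESeq2, 9 with limma-voom, 3 with the replicate block, 114 in 1 fit of all 20 libraries and 1 to 12 with 1 library left out. The overexpression called 322, and 1107 with DESeq2, 544 with the replicate block and 128 to 469 with 1 library left out. The difference called 902, and 1614 with DESeq2 and 485 to 1384 with 1 library left out. Equal replicate numbers did not pair the livers: their deviations from the group means had correlations from -0.20 to 0.35 in the knockdown and from -0.11 to 0.26 in the overexpression. With the block 0 members were called, and their median was 0.27 in the knockdown and -0.84 in the overexpression. Ciita was not tested in the knockdown under the 1 CPM filter. Ciita rests on as few as 14 counts in a library.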
